A study of Mus musculus with 6 samples.

Results

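Ebf1, Pax5 and Pou2af1 are 3 transcription regulators of the B lineage, and they are described here in sorted mouse bone marrow cells. They were chosen by symbol. Each had 1 probe set that carried its symbol alone, so 3 probe sets were described of 14610 tested, and 3 genes of the 10366 that had a single-symbol probe set. All 3 passed the filter on dim probe sets that was tried as an alternative.

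The cells were LKS-Slam cells. This gate takes marrow cells without lineage markers but with Kit and Sca-1, narrows them by SLAM-family antigens, and is rich in hematopoietic stem cells. The group labelled Zeb2-KO came from Zeb2 fl/fl mice, whose Zeb2 alleles are floxed and which also carried Mx1-Cre, a recombinase driven by an interferon-inducible promoter, which acts in blood cells and in other tissues that respond to interferon. The other group were C57Bl/6 WT mice, and the labels name no Cre allele for them. Mice of both groups were given pIC, a synthetic double-stranded RNA that induces interferon, when 6 weeks old. Their marrow was taken 8 weeks later, at 14 weeks of age. Each group had 3 arrays, 1 for each biological replicate. The design sets both groups side by side to find genes whose expression differs once Zeb2, which encodes a repressor with zinc fingers, has been deleted in blood cells.

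Entry into the B lineage runs through a chain of transcription factors. E proteins and Foxo1 help to switch on Ebf1, a helix-loop-helix factor that opens B cell genes and activates Pax5. Pax5, a paired-domain factor, holds cells to the B lineage by activating genes of the B cell receptor pathway and repressing genes of other lineages. Pou2af1, also called OBF-1, is a coactivator that joins the octamer factors Pou2f1 and Pou2f2 on DNA and is best known from mature B cells and germinal centres. Hematopoietic stem cells are not known for high levels of these factors.

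The sequences before the listed starts of the 3 genes are shown because the genes lay lower together in the arrays labelled Zeb2-KO and because Zeb proteins are known to bind E box-like sites. They come from RefSeq on GRCm38.p6, run 5′ to 3′ on the gene's strand and end at the base before the start. Capitals mark CANNTG, the E box, the only one of 4 searched motifs that matched. For Ebf1 the table lists 2 starts. The window of the first, chr11:44617850-44618099 on the plus strand, held no match, and of the second window, which lies inside the gene, 30 bases around its match are shown (chr11:44620108-44620137, plus strand). The Pax5 window is chr4:44710695-44710944 on the minus strand and the Pou2af1 window chr9:51213440-51213689 on the plus strand.
Ebf1, first start: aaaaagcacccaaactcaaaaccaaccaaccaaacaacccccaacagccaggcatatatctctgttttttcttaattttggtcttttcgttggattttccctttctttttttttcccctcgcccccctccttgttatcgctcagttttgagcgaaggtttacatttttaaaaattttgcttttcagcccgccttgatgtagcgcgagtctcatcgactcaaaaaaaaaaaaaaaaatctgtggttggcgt
Ebf1, second start: cgcagcgcgtttCAAGTGgagtaaagattg
Pax5: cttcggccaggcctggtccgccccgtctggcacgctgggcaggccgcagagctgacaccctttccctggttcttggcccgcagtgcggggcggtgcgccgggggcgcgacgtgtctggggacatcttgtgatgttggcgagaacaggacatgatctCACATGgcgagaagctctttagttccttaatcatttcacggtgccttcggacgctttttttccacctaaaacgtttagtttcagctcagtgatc
Pou2af1: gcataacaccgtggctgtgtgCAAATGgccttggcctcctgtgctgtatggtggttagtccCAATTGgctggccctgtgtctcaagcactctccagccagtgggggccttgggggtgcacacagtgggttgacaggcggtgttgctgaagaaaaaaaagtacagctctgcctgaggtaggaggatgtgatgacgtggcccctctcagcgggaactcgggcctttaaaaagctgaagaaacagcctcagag

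Both strands of the 250 bases before each start were searched. An E box stood 108 bases before the second Ebf1 start, 94 bases before the Pax5 start, and 229 and 189 bases before the Pou2af1 start. Of 32851 promoter windows of that length in the table, 66.2% held CANNTG, so a match is common. CACCTG, the form of the E box bound by Zeb proteins and E proteins, was in none of the 4 windows and in 17.2% of all windows. Only this full form was searched. The Pax5 window holds CACCT followed by A, and how many windows hold that shorter form was not counted. The Ebf1 core CCCNNGGG, in 11.8% of all windows, and the octamer ATGCAAAT, in 1.60%, were also in none of the 4. These matches describe the letters of the windows only.

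Before the members, the label was checked on Zeb2 itself. Its probe set read 6.58, 7.51 and 7.34 (log2 intensity) in WT replicates 1 to 3, and 7.79, 9.13 and 8.96 in those labelled Zeb2-KO. It was thus higher in the latter with no overlap, but limma gave an adjusted p of 0.581. The deleted exons are not named in the labels, and a probe set elsewhere in the gene would check nothing, so every direction below rests on the labels. Of 10 genes of the gate 7 were measured, 4 above 0 and 3 below, with a median of 0.26 and none past the test. Slamf1, which encodes CD150, lay at 1.30 and Kit at 0.53, both higher under the label Zeb2-KO without overlap between groups. Slamf1 read 5.76 in WT replicate 1 and 7.94 to 9.01 in the other arrays, and Kit was also lowest in WT replicate 1. Procr, a stem cell surface receptor, lay at -0.45, also without overlap, and was highest in WT replicate 1 at 7.04. Cd48, usually absent from stem cells, lay at -1.02 without overlap between groups. WT replicate 1 also correlated least with the others (mean r = 0.841, against 0.887 to 0.908). The interquartile range of log2 values ran from 1.59 (WT replicate 1) to 2.40 (Zeb2-KO replicate 2). Dim and bright probe sets thus lay farther apart in some arrays. In replicates 1 to 3 the range was 1.83, 2.40 and 2.11 under the label Zeb2-KO and 1.59, 2.03 and 1.77 in WT. It was wider under the label Zeb2-KO at each number. A fit with this range as a covariate can therefore also take up part of a group difference, and cannot fully tell spread and group apart. The summed linear intensity of the mature B and plasma cell markers described below fell, array by array, as this range rose. It went from 4245 in WT replicate 1 to 1188 in Zeb2-KO replicate 2. The covariate can thus also take up part of a difference in B cell genes, and how much was not tested.

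All 3 members lay lower in the arrays labelled Zeb2-KO, and none passed the test across all probe sets (adjusted p under 0.05). Pax5 differed by -1.10, Pou2af1 by -0.87 and Ebf1 by -0.61 (log2 differences), 2.14-fold, 1.82-fold and 1.52-fold lower. Of all probe sets tested, 0.0137% passed that threshold in either direction and 0% passed it as lower, where 194 (1.33%) lay lower at an unadjusted p under 0.05. Over all tested probe sets the median difference was -0.09 and 55.4% lay below 0. A lower value in such sorted cells can mean fewer cells of a type or less RNA in each cell, and the arrays cannot tell these apart.

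**Figure D1:**
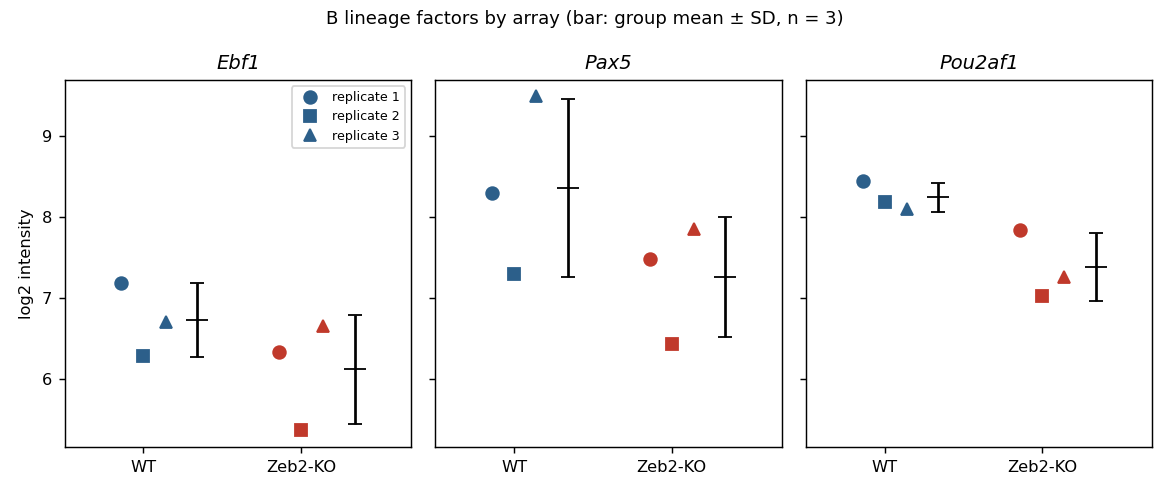
Log2 intensity of Ebf1, Pax5 and Pou2af1 (vertical axis) in each WT and Zeb2-KO array, with marker shape giving the replicate number and black bars the group mean ± SD of 3 arrays. The groups overlap for Ebf1 and Pax5, while the highest Pou2af1 value in the arrays labelled Zeb2-KO (7.84) lies below the lowest in WT (8.10).

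Ebf1, the first of the chain, read 6.33, 5.36 and 6.65 in replicates 1 to 3 labelled Zeb2-KO and 7.19, 6.28 and 6.70 in WT. Zeb2-KO replicate 2 was the lowest array and WT replicate 1 the highest, and the other 4 lay within the span 6.28 to 6.70 in an order that mixed the groups. An array labelled Zeb2-KO was the lower one in 7 of 9 pairs formed between the groups. The means were 6.12 ± 0.67 and 6.72 ± 0.45 (SD, n = 3), and the difference of -0.61 had an SE of 0.39 and a 95% interval from -1.46 to 0.24 (limma adjusted p = 0.673).

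The arrays at both ends of the Ebf1 range are also the arrays at both ends of the array spread. They are at both ends of the summed mature B and plasma cell markers as well, at 4245 in WT replicate 1 and 1188 in Zeb2-KO replicate 2. Which of these the Ebf1 values follow was not tested. Without Zeb2-KO replicate 2, the array with the widest interquartile range, the difference was -0.23, and without WT replicate 1, the narrowest, it was -0.38. With that range as a covariate it was -0.02 (SE 0.34), and with array weights -0.15. Those weights rested mostly on Zeb2-KO replicate 3, the highest Ebf1 array of its group, at 8.22 against 0.38 and 0.65 in replicates 1 and 2. That fit stopped before its weights converged. Quantile normalization, which gives every array the same distribution, left the difference at -0.63. Ranked within each array, the Ebf1 probe set exceeded 40.9%, 21.6% and 51.3% of the tested probe sets in replicates 1 to 3 labelled Zeb2-KO, and 69.0%, 40.3% and 54.4% in WT. Such ranks depend on how well each probe set hybridises and serve only to compare arrays.

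Pax5, which Ebf1 activates, spread most among the 3. Its values were 7.48, 6.43 and 7.85 in replicates 1 to 3 labelled Zeb2-KO and 8.29, 7.29 and 9.48 in WT. WT replicate 3 stood above all other arrays, and WT replicate 2 lay below Zeb2-KO replicates 1 and 3, so the groups overlapped. The means were 7.25 ± 0.74 and 8.35 ± 1.10 (SD, n = 3). The difference of -1.10 had an SE of 0.53 and a 95% interval from -2.27 to 0.08 (limma adjusted p = 0.673), and again 7 of 9 pairs had the lower value in the array labelled Zeb2-KO.

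On the linear scale, Pax5 intensities ran from 86.1 in Zeb2-KO replicate 2 to 716 in WT replicate 3. Its pooled SD within groups, 0.94, exceeded that of 94.5% of the tested probe sets, so its larger difference came with a larger error. Only 0.616% of tested probe sets had a lower difference, but 8.77% had a smaller unadjusted p. Single arrays moved the value: leaving out WT replicate 3 gave -0.53, leaving out WT replicate 2 gave -1.63, and -0.69 was left without the second array labelled Zeb2-KO. The array spread as a covariate gave -0.40 (SE 0.67).

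Pou2af1, the octamer coactivator, was the member whose groups did not overlap. It read 7.84, 7.03 and 7.26 in replicates 1 to 3 labelled Zeb2-KO and 8.44, 8.18 and 8.10 in WT, so all 9 pairs had the lower value in the array labelled Zeb2-KO. Such separation with lower values in that group was found in 915 tested probe sets (6.26%), and 1008 (6.90%) were separated the other way. The means were 7.37 ± 0.42 and 8.24 ± 0.18 (SD, n = 3), with a difference of -0.87, an SE of 0.31, a 95% interval from -1.54 to -0.19 and an adjusted p of 0.656 (limma).

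The interval of Pou2af1, which is not adjusted for the number of probe sets, leaves out 0, whereas those of Ebf1 and Pax5 include it. A smaller unadjusted p was found for 2.47% of the tested probe sets. Leaving out 1 array in turn moved the difference between -1.10 and -0.69, and the array spread as a covariate gave -0.52 (SE 0.24). With array weights it was -0.90 and passed (adjusted p = 0.0332). That fit called 978 probe sets (6.69%), 203 of them lower (1.39%), gave Zeb2-KO replicate 3 a weight of 8.22 against 0.38 to 1.89 for the other arrays, and stopped before its weights converged.

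**Figure D2:**
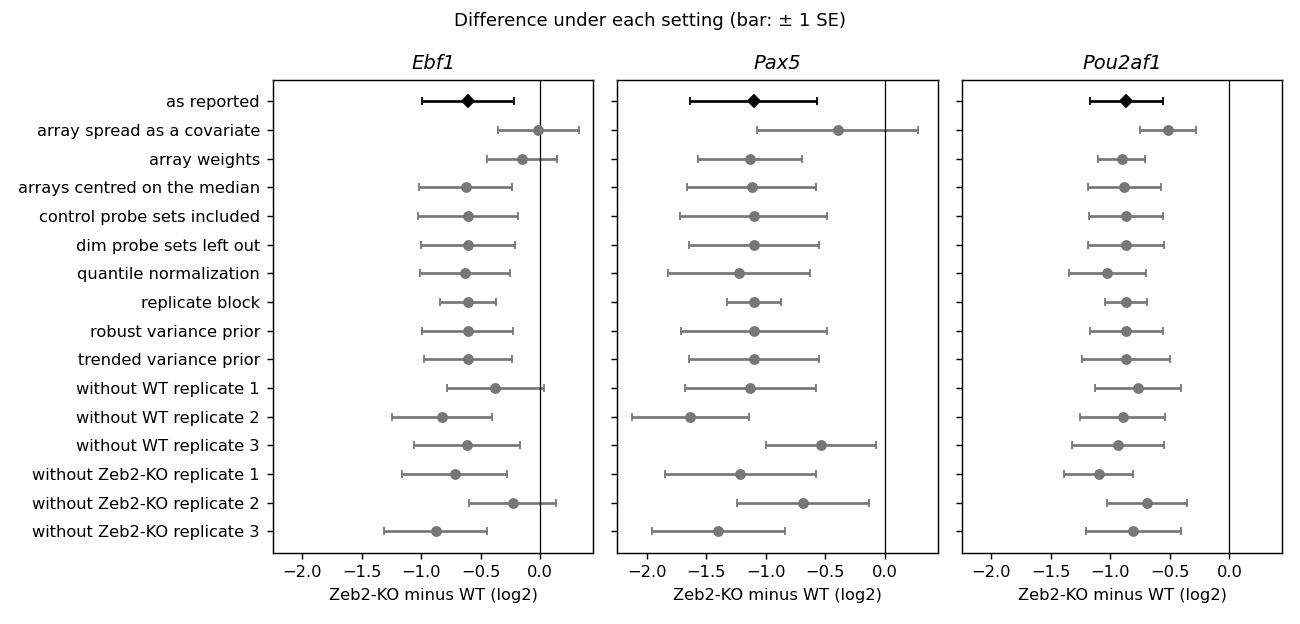
Difference between arrays labelled Zeb2-KO and WT (log2, horizontal axis) for each member under the reported setting (black diamond) and each alternative (grey), with bars of 1 SE. All points lie below 0, from -0.02 (Ebf1 with the array spread as a covariate) to -1.63 (Pax5 without WT replicate 2), and Pou2af1 keeps the narrowest range.

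The 3 members do not sit in the same part of the brightness scale. With the tested probe sets split by mean into 4 bins of equal size, the brightest bin (7.59 or more), which holds Pax5 and Pou2af1, had a median difference of 0.27, and 27.1% of its probe sets lay below 0. The bin that holds Ebf1 (5.78 to 6.63) had a median of -0.20, with 67.9% below 0. Pax5 and Pou2af1 thus ran opposite to most probe sets of their brightness, and Ebf1 had the same sign as most of its own. No detection call was used here, so whether the Ebf1 intensities exceed background was not tested.

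The paralogs give a view of related probe sets. Of 12 paralogs fixed as a list, 6 were measured, among them Ebf2 and Ebf3, the paired-domain genes Pax1, Pax2 and Pax9, which are known from skeletal, kidney and pharyngeal development, and Pou2f3, an octamer factor of epithelial cells. All 6 lay below 0, between -0.43 and -0.26, with a median of -0.41, and none passed the test. Their adjusted p ran from 0.673 to 0.688. Pax1 read 7.34, 6.98 and 6.77 in WT and 6.92, 6.22 and 6.66 under the label Zeb2-KO, lowest in Zeb2-KO replicate 2 and highest in WT replicate 1 as Ebf1 was. Pax9 lay at -0.42, Pou2f3 at -0.42 and Ebf3 at -0.36. With the array spread as a covariate the paralog median was -0.09. The part of the array spread in the members' differences was not tested beyond these fits.

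Factors that act before or beside Ebf1 lay on both sides of 0. Of 16 such specification factors 9 were measured, 5 below 0 and 4 above, with a median of -0.02 and none past the test. Ets1, an Ets-family factor of lymphoid cells, lay at -0.60, Mef2c, which takes part in lymphoid priming, at -0.34 and Foxo1 at -0.32. Tcf12, an E protein, lay at 0.27. The E protein genes Tcf3 and Tcf4 and the lymphoid factor Ikzf1 were not analysed here. With quantile normalization 7 of 9 lay below 0 and the median was -0.22. The array spread as a covariate left Ets1 at -0.18 and Foxo1 at -0.07.

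Factors of later B cells mostly lay lower. Of 12 genes 10 were measured, 8 of them below 0, with a median of -0.32 and none past the test. When the array spread was a covariate, 7 of 10 lay below 0 and the median was -0.10. Ikzf3, known as Aiolos, a zinc-finger factor of maturing lymphocytes and a known Pax5 target, read 5.37, 5.14 and 5.41 in replicates 1 to 3 labelled Zeb2-KO and 7.28, 5.22 and 7.98 in WT. As with Pax5, WT replicates 3 and 1 were the highest and second highest arrays, and WT replicate 2 lay among the arrays labelled Zeb2-KO. Its difference of -1.52 (SE 0.57, limma adjusted p = 0.662) was -0.94 without WT replicate 3, -2.32 without WT replicate 2 and -0.82 with the covariate.

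Pou2f2, which encodes Oct-2, a DNA-binding partner of Pou2af1, read 7.58, 7.46 and 7.90 in WT and 7.25, 6.76 and 6.84 under the label Zeb2-KO. Like its coactivator it did not overlap between groups, and its difference was -0.70 (SE 0.29, limma adjusted p = 0.673). Spib, an Ets factor of B cells and plasmacytoid dendritic cells, lay at -0.71 and at -0.26 without WT replicate 1, which read 7.81 against 5.91 to 6.63 elsewhere. Irf8, an interferon regulatory factor of B and myeloid cells, lay at -0.42, and at -0.03 with the covariate.

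Genes that Ebf1 or Pax5 are known to activate lay lower throughout. Of 18 genes 14 were measured and all 14 lay below 0, with a median of -0.47 against -0.09 for all tested probe sets, yet none passed the test (limma adjusted p of 0.657 or more). Earlier results of these data showed lower B cell genes, so this count repeats that pattern and does not stand beside it as separate support. When the array spread entered as a covariate, 9 of 14 lay below 0 and the median was -0.12. With quantile normalization 14 of 14 did, with a median of -0.53.

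Cd22, an inhibitory coreceptor of B cells, was the 1 activated target of 14 without overlap. Of all tested probe sets 6.26% were separated in that direction, so such a count is ordinary. Cd22 read 9.02, 7.91 and 8.61 in WT and 7.74, 7.47 and 7.60 under the label Zeb2-KO, a difference of -0.91 (SE 0.33). Cd79b and Cd79a, the signalling chains of the B cell receptor, lay at -0.84 (SE 0.36) and -0.66 (SE 0.34). Cr2, the complement receptor CD21, lay at -0.82 (SE 0.39). These 4 genes lay nearer 0 when the array spread was a covariate, with Cd22 at -0.51, Cd79b at -0.23, Cd79a at -0.14 and Cr2 at -0.15. Cd79a was -0.38 without Zeb2-KO replicate 2, and Cr2 -0.48 without WT replicate 1. In the sum of the 14 linear intensities WT replicate 1 was highest at 5279, followed by WT replicate 3 at 3429. The arrays labelled Zeb2-KO summed to 2639, 1654 and 2188 in replicates 1 to 3, and WT replicate 2, at 2148, lay inside that span.

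**Figure D3:**
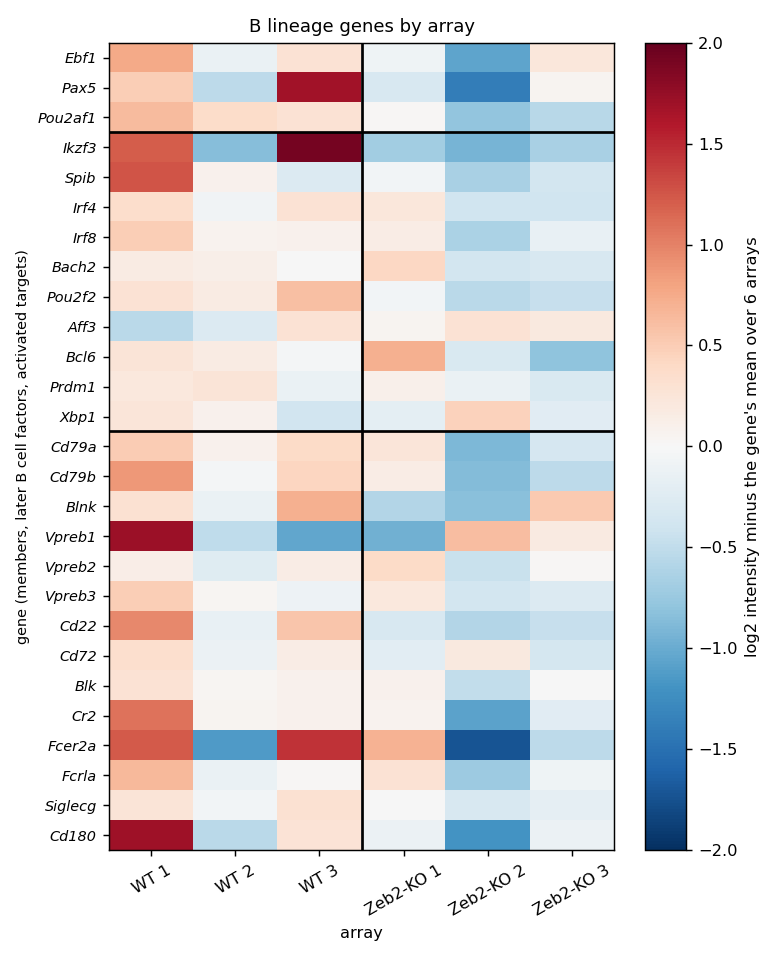
Log2 intensity minus each gene's mean over the 6 arrays (colour, from -2 to 2) for the members, the 10 measured factors of later B cells and the 14 measured activated targets (rows), by array (columns). Zeb2-KO replicate 2 is lowest for all 3 members, WT replicates 1 and 3 are high for Pax5 and Ikzf3, and WT replicate 2 resembles the arrays labelled Zeb2-KO for both.

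Reported targets of octamer factors and Pou2af1 lay on both sides of 0. Of 6 genes 4 were measured, 3 below 0 and 1 above, with a median of -0.61 and none past the test. Ms4a1, which encodes CD20, read 8.07, 7.36 and 8.58 in WT and 6.82, 5.13 and 5.89 under the label Zeb2-KO, with no overlap, a difference of -2.06 (SE 0.45, limma adjusted p = 0.414). Btk, the kinase behind the B cell receptor, which is also expressed in myeloid cells and megakaryocytes, ran the other way without overlap, at 7.39, 8.40 and 8.49 against 6.60, 7.24 and 6.67 in WT, a difference of 1.25 (SE 0.36, limma adjusted p = 0.602). Cxcr5, the follicle homing receptor, lay at -0.50, and at 0.18 without WT replicate 1. With the array spread as a covariate Ms4a1 was -1.25 and Btk 0.72.

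Genes known to be repressed by Pax5 did so as well. Of 9 genes 6 were measured, with 4 below 0, a median of -0.13 and none past the test. Flt3, the cytokine receptor of multipotent progenitors, lay at 0.69 and Lmo2, a stem cell transcription cofactor, at 0.64, and the covariate left them at 0.30 and 0.34. Grap2, an adaptor of T cell signalling, lay at -0.77. The groups did not overlap for Grap2, which was lower, nor for Lmo2, which was higher. Notch1, the receptor that directs progenitors to the T lineage, lay at -0.30.

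Antagonists of B lineage entry and early lymphoid genes lay on both sides of 0. Of 8 antagonists 6 were measured, 4 below 0, with a median of -0.22 and none past the test. Among them Id3, an inhibitor of E proteins, lay at -0.56, Zfp423, a zinc-finger protein that binds Ebf1, at -0.24 and Gata2, a stem and progenitor factor, at 0.35. Of 14 early lymphoid genes 6 were measured, 4 below 0, with a median of -0.20 and none past the test. Flt3, also on this list and its gene with the smallest unadjusted p, lay above 0 at 0.69. Ly6d, which marks B-primed lymphoid progenitors, lay at -0.58, Satb1, a chromatin organiser, at -0.51 and Bst1, a surface enzyme of early B cells, at -0.21. Ly6d was -0.26 without WT replicate 3, and Bst1 turned to 0.03 without WT replicate 1 and to 0.17 when the array spread was a covariate, which also left Id3 at -0.25. Il7r, Rag1, Rag2 and Dntt were not analysed here.

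**Figure D4:**
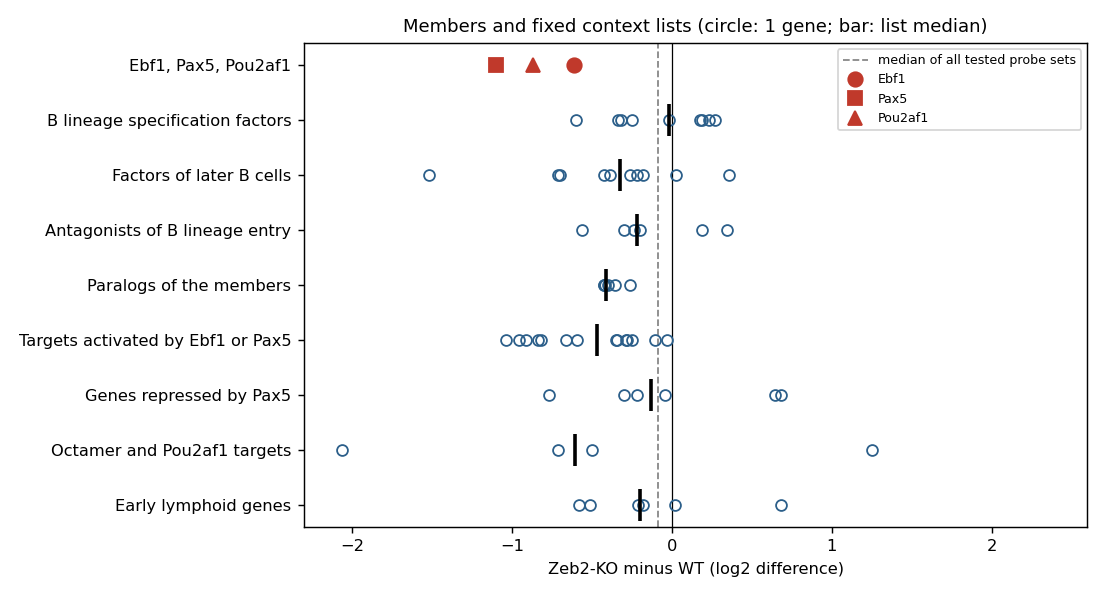
Log2 difference between arrays labelled Zeb2-KO and WT (horizontal axis) for the members (red) and each measured gene of 8 context lists (circles), with list medians as black bars and the median of all tested probe sets (-0.09) as a dashed line. The 14 activated targets and 6 paralogs all lie below 0, and the specification factors lie on both sides.

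Cell type markers that could accompany the members were read in the same arrays. Of 18 markers of mature B and plasma cells 13 were measured, all below 0 (median -0.77) and none past the test. Cd79a, Cd79b, Cd22, Fcer2a, Cr2 and Blk are also on the list of activated targets, and Ms4a1 and Cxcr5 on that of octamer targets. This marker count thus partly repeats those lists and is no separate support. When the array spread was a covariate, 10 of 13 lay below 0 and the median was -0.15. Their summed linear intensity ran from 1188 to 2563 in the arrays labelled Zeb2-KO and from 2265 to 4245 in WT. The sum was highest in WT replicate 1, then in WT replicate 3, and lowest in Zeb2-KO replicate 2, as Ebf1 was. Pax5 had the same lowest array, but WT replicate 3 stood above WT replicate 1. Pou2af1 was also highest in WT replicate 1 and lowest in Zeb2-KO replicate 2. Plasmacytoid dendritic cells are also known to express Spib and octamer cofactors. Of 10 of their markers 4 were measured, and the sums overlapped (347 to 421 and 359 to 626), with Siglech, a surface lectin of these cells, at -0.33.

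No gene of the other marker lists passed the test either. Of 16 monocyte and dendritic cell markers 10 were measured, with a median difference of -0.37 and overlapping sums of 2368 to 3244 (Zeb2-KO) and 2937 to 4723 (WT). Of 15 T and NK markers 7 were measured, with a median of 0.03 and overlapping sums of 763 to 1451 and 634 to 857. Of megakaryocyte markers 8 of 12 were measured, 7 above 0 (median 0.89), with sums of 3132 to 5786 against 955 to 1993. Of erythroid markers 5 of 10 were measured, all above 0 (median 0.96), with sums of 2978 to 3391 against 917 to 1350. Of granulocyte markers 5 of 12 were measured, 3 above 0 and 2 below (median 0.25), with sums of 413 to 1406 against 320 to 374. The highest of these sums is that of Zeb2-KO replicate 1, where S100a9, a calprotectin subunit, read 10.16 against 6.42 to 7.57 elsewhere. No marker stood at 0, since array intensities carry a background. The part of these cells in the members' differences was not tested.

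Each member's closest companions were sought among the genes at or above the median brightness that varied over the arrays (SD of at least 0.5). These were 2100 genes for Ebf1 and 2099 for Pax5 and for Pou2af1. In a search of that size over 6 arrays, high r values can arise without any link, so the companions are a description only. Likeness was Pearson's r over the 6 arrays, which share the group difference and the array spread. Ebf1 was followed by Nyx (r = 0.921), Cd180 (0.912), Cr2 (0.908), Lpgat1 (0.908) and Syne2 (0.899). Cd180, a toll-like receptor homologue of B cells, and Cr2 are both on the list of activated targets. Cd180 read 10.70 in WT replicate 1 and 7.82 in Zeb2-KO replicate 2, the highest and lowest arrays of Ebf1 as well.

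Pax5 was followed by Ly6d (r = 0.953), Gm10584 (0.936), Zfp296 (0.925), Ctss (0.918) and Nyx (0.908). Ly6d, the surface protein of B-primed progenitors, read 8.71 in WT replicate 3 and 6.91 in Zeb2-KO replicate 2, the highest and lowest arrays of Pax5. Pou2af1 was followed by Lbh (r = 0.983), Cd74 (0.978), Bank1 (0.975), Cnrip1 (0.971) and Sf3b4 (0.963). Cd74 encodes the MHC class II invariant chain and Bank1 a B cell scaffold protein. Bank1 read 8.16, 6.57 and 6.54 in replicates 1 to 3 labelled Zeb2-KO and 9.32, 8.30 and 8.55 in WT, which like Pou2af1 placed WT replicate 1 highest and left a gap between the groups. Nyx was the 1 gene that appeared beside more than 1 member.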

How the data were processed

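Total RNA was amplified, biotin-labelled and put on mouse gene arrays, with 1 array for each marrow sample, as the labels' protocols describe. For every array the deposited table gives 1 intensity per probe set. RMA is named in the submitters' processing notes, without a version, and no source used here describes a later rescaling. The deposited intensities lie on a linear scale, so log2 was taken.

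Of 20220 probe sets, 5610 with identifiers below the first annotated one carry no gene and were left out as controls. Of the 14610 tested, 11229 carry 1 symbol, 766 several and 2615 none in the platform annotation. Promoters were matched by symbol for all 3 members.

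Groups came from the titles. Probe sets were fitted in R 4.3.3 by lmFit and eBayes of limma 3.58.1, with 4 residual and 6.87 prior degrees of freedom. The p-values of all probe sets tested were adjusted together (Benjamini-Hochberg, threshold 0.05). The procedure was also run on simulated arrays with independent noise. Changes planted there were larger than the members' differences, and the arrays shared no spread, so that run does not bear on differences of the members' size. Adjusted and unadjusted p in the text are from this fit unless an alternative is named. Differences are log2 values of arrays labelled Zeb2-KO minus WT. Context genes used the probe set with the highest mean. The members and lists were chosen with earlier results of these data known. Named genes are the members, Zeb2, up to 4 genes per pathway list with the smallest p, and the 5 genes most like each member. Other genes, among them Siglech, Kit, Slamf1, Procr, Cd48 and S100a9, were named after their values were seen. Pax1 and Zfp423 were also named then, though each is among the 4 genes of its list with the smallest p. The number of arrays, 3 in each group, limits the precision.

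Alternatives were a filter on dim probe sets (lowest 25% by mean), quantile normalization, centring of arrays, other variance priors, array weights, the array spread as a covariate, the replicate number as a block, control probe sets included, and each array left out in turn.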

Additional observations from a re-analysis of the deposited data

How the results depend on the processing

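Each member was refitted under 15 alternatives, and all 3 lay below 0 in every one. Only Pou2af1 with array weights (-0.90, adjusted p = 0.0332) passed the threshold, and its adjusted p otherwise reached up to 0.988. The adjusted p of the alternatives ran from 0.277 to 0.999 for Ebf1 and from 0.117 to 0.999 for Pax5. With 1 array left out, Ebf1 ran from -0.88 to -0.23, Pax5 from -1.63 to -0.53 and Pou2af1 from -1.10 to -0.69. With several probe sets per gene a mean would have been tried, but each member has 1.

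The replicate numbers name samples and need not pair them. Deviations from the group means correlated at 0.360, 0.414 and 0.047 between arrays of the same number. Every array correlated best with its own number, a hint from the data only. For Zeb2-KO replicate 3 the value with WT replicate 2 was close, at 0.030. The array spread had the same order in both groups, with replicate 1 narrowest and replicate 2 widest. Its part in these correlations was not tested. With the replicate block the differences were as reported (-0.61, -1.10 and -0.87, adjusted p = 0.277 for each) and the number of probe sets past the threshold went from 2 to 0, with 2595 at an unadjusted p under 0.05 in limma.

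That number was 1 with the array spread as a covariate, 978 with array weights and 2 to 18 with 1 array left out (5 without Zeb2-KO replicate 1, 10 without WT replicate 1, 18 without WT replicate 2, 9 without WT replicate 3). The median of the specification factors was -0.22 with quantile normalization and ran from -0.17 to 0.066 with 1 array left out. With the array spread as a covariate the medians were -0.072 for the antagonists, -0.091 for the paralogs and -0.017 for octamer targets. The median of the genes repressed by Pax5 was 0.30 without dim probe sets, where 4 genes were left. With 1 array left out it ran from -0.25 to 0.18, that of later factors from -0.60 to -0.20, of octamer targets from -0.91 to -0.038 and of early lymphoid genes from -0.47 to -0.10. The causes were not tested.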
